A study of Mus musculus with 6 samples.

Results

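The neutrophil granule and receptor genes examined here are S100a8, S100a9, Retnlg, Csf3r, Cxcr2, Mmp9, Lcn2, Camp, Ngp and Ltf. They were taken by symbol from the deposited gene table, and all 10 were found among its 57180 genes. The libraries were made from NK cells of fibrotic liver, sorted by the lipid receptor CD36 into CD36+ NK and CD36- NK. The study's flow cytometry defined NK cells as CD3- NK1.1+, and the gate of the sort for RNA is not stated. Each group had 3 libraries, and in both groups the donors were young adult male C57BL/6J mice whose liver fibrosis had been induced by repeated intraperitoneal CCl4 in olive oil, with no untreated group sequenced. These were wild-type mice, and whether the cells of 1 library came from 1 animal or from several is not stated, so the p-values measure the spread between these libraries. The library of replicate 1 in each group has a name that begins with a number, whereas the names of the other 4 libraries end in one, and these 2 forms of name are followed below because levels of most of the 10 genes moved with them. What the form of the name stands for is not stated.

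Neutrophils make their granules in sequence while they mature in bone marrow. Azurophil (primary) granules form first and carry Mpo, Elane and Prtn3, specific granules follow with lactoferrin, the cathelicidin and lipocalin 2, and gelatinase granules form late. S100A8 and S100A9 pair as calprotectin, the most abundant cytosolic protein of neutrophils, which binds zinc and calcium and acts as an alarmin through Tlr4. The receptor for G-CSF, Csf3r, drives granulocyte production, and Cxcr2 directs the exit of mature neutrophils from marrow and their entry into injured tissue, including liver. NK cells are not known for this programme, so its transcripts in a sorted NK fraction are read here library by library.

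Libraries labelled CD36+ NK held 109 to 262 CPM of Cd36 (CPM are counts scaled by library total and edgeR's TMM factor) and those labelled CD36- NK held 14.3 to 31.7 CPM (log2 fold change 3.27, SE 0.43, edgeR adjusted p = 0.00615). Libraries held between 10292480 and 13787189 counts, so that 3 counts, taken as the smallest level a library can show, stood for 0.218 to 0.291 CPM. Of 14761 genes with enough counts, 440 were higher and 440 lower in CD36+ NK (2.98% each) at an adjusted p below 0.05 and a fold above 2, the study's thresholds. The 8 NK lineage genes on a marker list were all lower, and they summed to 753 to 901 CPM in CD36+ NK against 3994 to 5005 CPM in CD36- NK. The macrophage and Kupffer cell list summed to 2296 to 5417 CPM in CD36+ NK against 408 to 1394 CPM in CD36- NK, with 4 of 8 tested genes higher and with Clec4f, Vsig4 and Timd4 at 0 in at least 1 library. The T cell list summed to 213 CPM in CD36+ NK replicate 1 and to 20.8 to 43.3 CPM in the other 5 libraries, with 2 of 5 genes higher in CD36+ NK, Cd4 and Cd8a. Cd3e was not called, at 26.9, 0.147 and 0.083 CPM in CD36+ NK and 0.614 to 1.06 CPM in CD36- NK. In its flow cytometry the study gated NK cells as CD3-. The B cell list summed to 3793 to 4212 CPM in CD36+ NK against 2512 to 2925 CPM in CD36- NK, without overlap, and its genes were not called by edgeR. The part of these other cell types in the values below was not tested.

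The 10 genes took very different shares of the libraries. Together they held 0.601% of all counts in CD36+ NK replicate 1, 0.0966% in replicate 2 and 0.121% in replicate 3. In CD36- NK they held 0.503%, 0.291% and 0.205% in replicates 1, 2 and 3. The highest shares were therefore in the replicate 1 libraries of both groups, and the lowest were in the other CD36+ NK libraries. In bulk RNA, fewer cells of a type and less RNA per cell cannot be told apart.

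Ranked per length, in the deposited FPKM, S100a9 or Ngp stood at the top of the 10 in every library. S100a9 ran from 224 to 1557 FPKM and Ngp from 203 to 1458 FPKM, and their order changed between libraries. S100a8 came next in all 6 libraries at 121 to 847 FPKM, followed by Camp at 66.3 to 468 FPKM. Ltf came after Camp at 26.1 to 166 FPKM in every library except CD36+ NK replicate 2, where Csf3r took its place. Cxcr2 was the lowest of the 10 in all 6 libraries, at 1.31 to 22.3 FPKM. Retnlg, Mmp9, Lcn2 and Csf3r changed places among themselves in the ranks between.

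The proteins of the specific granules are represented by 4 genes. Ngp (ENSMUSG00000032484, chr9:110248815-110252080, plus strand) encodes neutrophilic granule protein, a cathelicidin relative, and Camp (ENSMUSG00000038357, chr9:109676447-109678685, minus strand) encodes the cathelicidin antimicrobial peptide. Ltf (ENSMUSG00000032496, chr9:110848339-110871835, plus strand) encodes lactoferrin, which binds iron, and Lcn2 (ENSMUSG00000026822, chr2:32274645-32278264, minus strand) encodes lipocalin 2, which binds bacterial siderophores. Camp, Ngp and Ltf thus lie in a row on chromosome 9, with 570.1 kb between the first pair and 596.3 kb between the next. These positions are the table's own. The only build named for it is mRatBN7.2, a rat assembly, so the mouse build of these positions is not known. They do not match the GRCm38.p6 positions given next, and the 2 sets cannot be combined. The 250 bases before the start of each gene are shown in the RefSeq sequence of GRCm38.p6, since these 4 genes moved together across libraries, and Csf3r is shown beside them because it did not move with them. The stretches are chr9:109849457-109849706 (minus strand) for Camp, chr9:110419558-110419807 (plus strand) for Ngp, chr9:111019042-111019291 (plus strand) for Ltf, chr2:32387740-32387989 (minus strand) for Lcn2 and chr4:126024409-126024658 (plus strand) for Csf3r. Capitals mark TTGCNNAA or its reverse TTNNGCAA, a core of sites for C/EBP factors, and GAGGAA or its reverse TTCCTC, a core of sites for PU.1, both families known for their role in granulocyte genes.
Camp: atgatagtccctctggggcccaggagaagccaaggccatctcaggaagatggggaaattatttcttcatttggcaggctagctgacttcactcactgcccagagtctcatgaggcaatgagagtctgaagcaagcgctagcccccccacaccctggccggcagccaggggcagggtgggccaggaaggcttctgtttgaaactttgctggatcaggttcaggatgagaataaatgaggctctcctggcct
Ngp: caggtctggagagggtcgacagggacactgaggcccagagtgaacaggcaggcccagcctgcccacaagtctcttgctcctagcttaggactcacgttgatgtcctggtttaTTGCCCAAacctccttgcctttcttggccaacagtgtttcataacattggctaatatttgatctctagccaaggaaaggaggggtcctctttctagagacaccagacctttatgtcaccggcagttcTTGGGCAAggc
Ltf: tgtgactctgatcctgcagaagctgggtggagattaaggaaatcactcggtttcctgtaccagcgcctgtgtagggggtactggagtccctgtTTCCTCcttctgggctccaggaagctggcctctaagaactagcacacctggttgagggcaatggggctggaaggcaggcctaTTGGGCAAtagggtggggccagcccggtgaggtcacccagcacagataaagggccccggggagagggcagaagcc
Lcn2: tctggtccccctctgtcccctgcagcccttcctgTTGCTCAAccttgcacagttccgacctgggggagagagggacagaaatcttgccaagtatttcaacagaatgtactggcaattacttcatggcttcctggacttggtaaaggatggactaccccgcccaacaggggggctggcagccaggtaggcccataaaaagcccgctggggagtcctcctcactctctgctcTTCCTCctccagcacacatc
Csf3r: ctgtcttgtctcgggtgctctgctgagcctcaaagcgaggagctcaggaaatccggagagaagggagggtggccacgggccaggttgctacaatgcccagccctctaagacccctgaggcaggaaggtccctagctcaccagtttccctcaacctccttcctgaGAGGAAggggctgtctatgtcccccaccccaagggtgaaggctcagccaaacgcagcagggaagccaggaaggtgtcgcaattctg
Camp held neither motif. Ngp held the C/EBP letters at -138 and -11 from the start, Ltf held them at -75 with the PU.1 letters at -157, and Lcn2 held them at -216 with the PU.1 letters at -20. Csf3r held only the PU.1 letters, at -86. Of the 9 genes with a promoter entry, 5 held the C/EBP letters and 5 the PU.1 letters, against 9.56% and 23.3% of all 32851 promoters of this length. Neither motif was shared by all of the genes that moved together, and a match of letters in this window is a description only.

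Ngp stood at 1757, 252 and 386 CPM in CD36+ NK replicates 1, 2 and 3 and at 1610, 895 and 686 CPM in CD36- NK. Camp stood at 350.0, 50.9 and 76.1 CPM in CD36+ NK and at 339, 201 and 138 CPM in CD36- NK. In both genes the replicate 1 libraries of the groups were close to each other and above all others, and CD36+ NK replicates 2 and 3 were the lowest of the 6. Ltf, at 910.0, 147 and 210 CPM in CD36+ NK and 847, 496 and 360 CPM in CD36- NK, had the same order at both ends. Lcn2, at 349, 47.6 and 71.2 CPM in CD36+ NK and 306, 178 and 129 CPM in CD36- NK, did too. Since the spread within CD36+ NK was as large as the mean (Ngp 798 ± 833 CPM, SD, n = 3, against 1063 ± 484 CPM in CD36- NK), the groups overlapped for all 4 genes. Their log2 fold changes, CD36+ NK over CD36- NK, were -0.41 (SE 0.71) for Ngp, -0.51 (SE 0.71) for Camp, -0.43 (SE 0.68) for Ltf and -0.39 (SE 0.73) for Lcn2, with edgeR adjusted p-values from 0.715 to 0.794.

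The calprotectin genes S100a8 (ENSMUSG00000056054, chr3:90576285-90577342, plus strand) and S100a9 (ENSMUSG00000056071, chr3:90599939-90603028, minus strand) are neighbours with 22.6 kb between them. S100a8 stood at 822, 120 and 154 CPM in CD36+ NK replicates 1, 2 and 3 and at 618, 395 and 281 CPM in CD36- NK. S100a9 stood at 1118, 165 and 205 CPM in CD36+ NK and at 1022, 507 and 376 CPM in CD36- NK. Both followed the order of the specific granule genes, with the replicate 1 libraries on top and CD36+ NK replicates 2 and 3 at the bottom. The log2 fold change between the groups was -0.24 (SE 0.72, edgeR adjusted p = 0.879) for S100a8 and -0.36 (SE 0.75, adjusted p = 0.817) for S100a9.

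**Figure D1:**
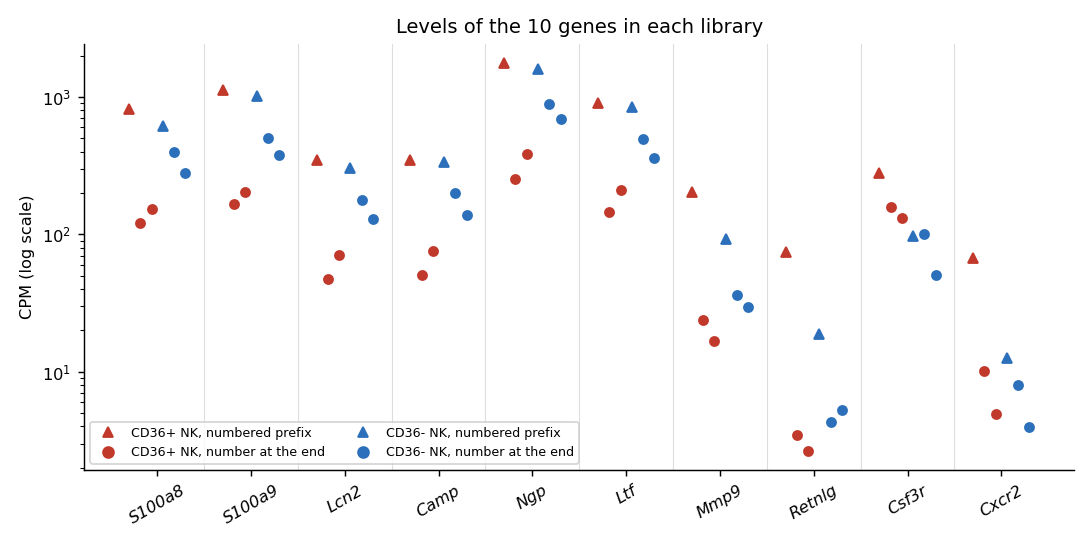
CPM of each of the 10 genes in each of the 6 libraries on a log axis, with CD36+ NK and CD36- NK side by side and the libraries with a number at the start of the name marked apart. CD36+ NK replicate 1 was the highest library for all 10 genes, and CD36+ NK replicates 2 and 3 were the lowest for 8 of them.

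The remaining genes spread more widely. Retnlg (ENSMUSG00000022651, chr16:48692984-48694859, plus strand), which encodes a resistin-like protein of mature neutrophils, stood at 74.9, 3.45 and 2.66 CPM in CD36+ NK and at 18.7, 4.32 and 5.26 CPM in CD36- NK. CD36+ NK replicate 1 was thus far above every other library, and the highest library was 28.2-fold above the lowest, the widest range of the 10 genes. Mmp9 (ENSMUSG00000017737, chr2:164782700-164797770, plus strand), the gelatinase of the late granules, stood at 204, 23.9 and 16.8 CPM in CD36+ NK and at 92.7, 36.5 and 29.4 CPM in CD36- NK. Its order of libraries was the same as that of Retnlg at the top, with replicate 1 of CD36+ NK followed by replicate 1 of CD36- NK. The groups overlapped, with log2 fold changes of 1.49 (SE 1.26, edgeR adjusted p = 0.52) for Retnlg and 0.62 (SE 0.94, adjusted p = 0.741) for Mmp9.

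Of the receptors, Cxcr2 had both replicate 1 libraries on top, as S100a8, S100a9 and the specific granule genes did, and Csf3r did not. For Cxcr2 this order was narrow, with CD36- NK replicate 1 at 12.7 CPM against 10.1 CPM in CD36+ NK replicate 2. Cxcr2 (ENSMUSG00000026180, chr1:74193150-74200405, plus strand), the receptor for CXCL1 and CXCL2, stood at 67.0, 10.1 and 4.90 CPM in CD36+ NK and at 12.7, 8.03 and 3.996 CPM in CD36- NK. Apart from CD36+ NK replicate 1, the libraries of the groups interleaved, and the log2 fold change was 1.72 (SE 0.94, edgeR adjusted p = 0.306). Csf3r (ENSMUSG00000028859, chr4:125918343-125938233, plus strand), which monocytes carry as well as neutrophils, stood at 279, 159 and 132 CPM in CD36+ NK and at 98.1, 102 and 50.8 CPM in CD36- NK. Every CD36+ NK library was above every CD36- NK library, and Csf3r was the only 1 of the 10 genes whose groups did not overlap, where 32.7% of all tested genes did not overlap and 17% were higher without overlap. Its level was 190 ± 78.1 CPM in CD36+ NK and 83.4 ± 28.3 CPM in CD36- NK (SD, n = 3), a log2 fold change of 1.18 (SE 0.35) with an edgeR adjusted p of 0.0761. The macrophage and Kupffer cell list named above, which also did not overlap between the groups, had its highest sum in CD36+ NK replicate 3, where Csf3r was the lowest of its group, and its part in the Csf3r values was not tested.

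Between CD36+ NK and CD36- NK, 0 of the 10 genes passed edgeR's test, where 5.96% of all tested genes did. At an unadjusted p below 0.05 there was 1 gene, Csf3r, against 26.3% of all tested genes, and DESeq2 also called 1, Csf3r (adjusted p = 0.00403), where it called 7.74% of all tested genes. The median log2 fold change of the 10 genes was -0.30, beside 0.01 over all tested genes. A single library carried much of the spread. Without CD36+ NK replicate 1, edgeR called 6 genes lower in CD36+ NK, namely S100a8 (-1.67, adjusted p = 0.0302), S100a9 (-1.79, 0.0469), Lcn2 (-1.79, 0.037), Camp (-1.85, 0.0363), Ngp (-1.75, 0.0405) and Ltf (-1.69, 0.0395), where 3.64% of 15208 tested genes were lower. The values of Retnlg, Mmp9 and Cxcr2 then changed sign, to -1.65, -1.39 and -0.15, and were not called. Without the replicate 1 libraries of both groups, 1 gene was lower, S100a9 (-1.27, adjusted p = 0.0475), where 2.2% of 14848 tested genes were lower. S100a8, Lcn2, Camp, Ngp and Ltf had similar values in that fit, from -1.43 to -1.28. Their edgeR adjusted p-values were 0.0534 to 0.07, and they were not called.

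**Figure D2:**
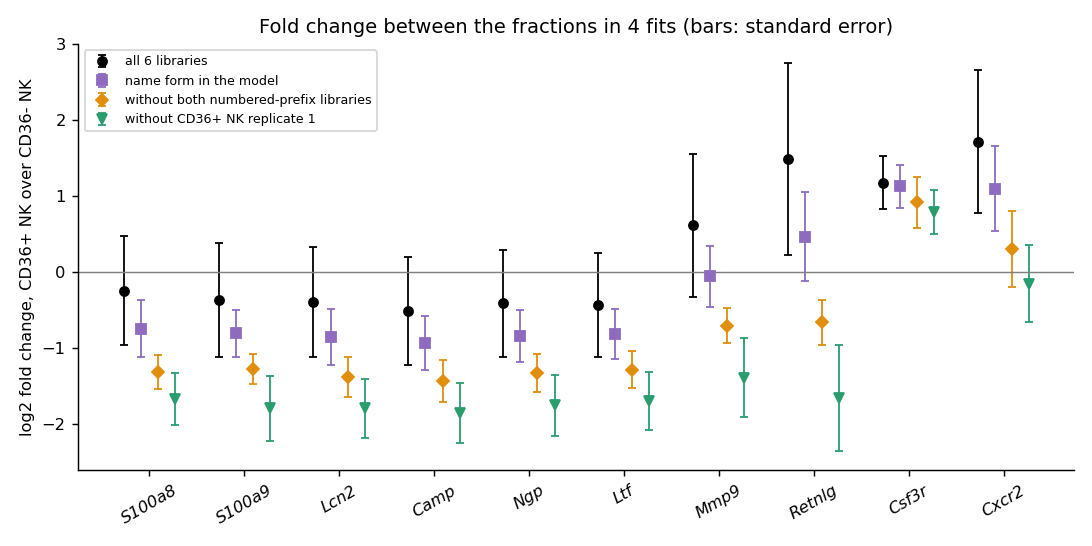
Log2 fold change of each of the 10 genes, CD36+ NK over CD36- NK, with bars of 1 SE from edgeR, over all 6 libraries, with the form of the library name in the model, without both replicate 1 libraries and without CD36+ NK replicate 1. The 6 calprotectin and specific granule genes sat between -0.51 and -0.24 over all libraries and between -1.85 and -1.67 without CD36+ NK replicate 1, whereas Csf3r stayed above 0 throughout.

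The form of the library name was then compared with the group held in the model. Since it is followed here because most of the 10 genes moved with it, the shares below describe that order and do not test it anew. Both libraries with a number at the start of the name were above the other 4 for 9 of the 10 genes, all but Csf3r, where 9.31% of all tested genes had this order. The fold between the forms was 10.8 for Retnlg, 5.62 for Mmp9, 4.79 for Cxcr2 and between 3.3 and 3.89 for the 6 calprotectin and specific granule genes. It was 1.58 for Csf3r (log2 0.66, SE 0.28, edgeR adjusted p = 0.431). With Retnlg at 3.43 (SE 0.56) and S100a9 at 1.96 (SE 0.32) on the log2 scale, edgeR gave adjusted p-values from 0.287 to 0.431, and 0 of the 10 genes passed, where 0.0135% of all tested genes did. At an unadjusted p below 0.05 there were 9 genes, against 11.9% of all tested genes. DESeq2 called 9 of the 10, all but Csf3r, where it called 0.677% of all tested genes. The median log2 difference of the 10 genes was 1.83, beside -0.02 over all tested genes. These differences were smaller without CD36+ NK replicate 1, at 1.97 for Retnlg, 1.49 for Mmp9, 1.07 for Cxcr2, 0.88 for S100a8 and 0.99 to 1.21 for S100a9 and the specific granule genes.

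The groups were also set side by side within each form of name. Within the pair of replicate 1 libraries, the log2 ratio of CD36+ NK to CD36- NK was 0.05 for Camp, 0.10 for Ltf, 0.13 for Ngp and for S100a9, 0.19 for Lcn2 and 0.41 for S100a8, with 1 library a group and so no replicate check. In the other 4 libraries the log2 ratio of the means was -1.42 for Camp, -1.27 for Ltf, -1.31 for Ngp, -1.26 for S100a9, -1.37 for Lcn2 and -1.30 for S100a8, with no overlap. With Retnlg and Mmp9, this order held for 8 of the 10 genes, where 5.3% of all tested genes had it. The difference between the sets was tested by the interaction of group and name form, added after the values were seen, and edgeR called 0 of the 10 genes, with a lowest adjusted p of 0.56. At an unadjusted p below 0.05 there were 9, all but Csf3r, against 3.27% of all tested genes. This test was run on a pattern already seen, and its spread comes from the other 4 libraries alone. Csf3r was higher in CD36+ NK in both sets, by log2 ratios of 1.51 and 0.93, and Cxcr2 by 2.40 and 0.32. The rise from the other libraries to replicate 1 was 5.11- to 6.05-fold in CD36+ NK and 1.83- to 2.31-fold in CD36- NK over the 6 calprotectin and specific granule genes, and 24.5-fold and 3.91-fold for Retnlg.

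**Figure D3:**
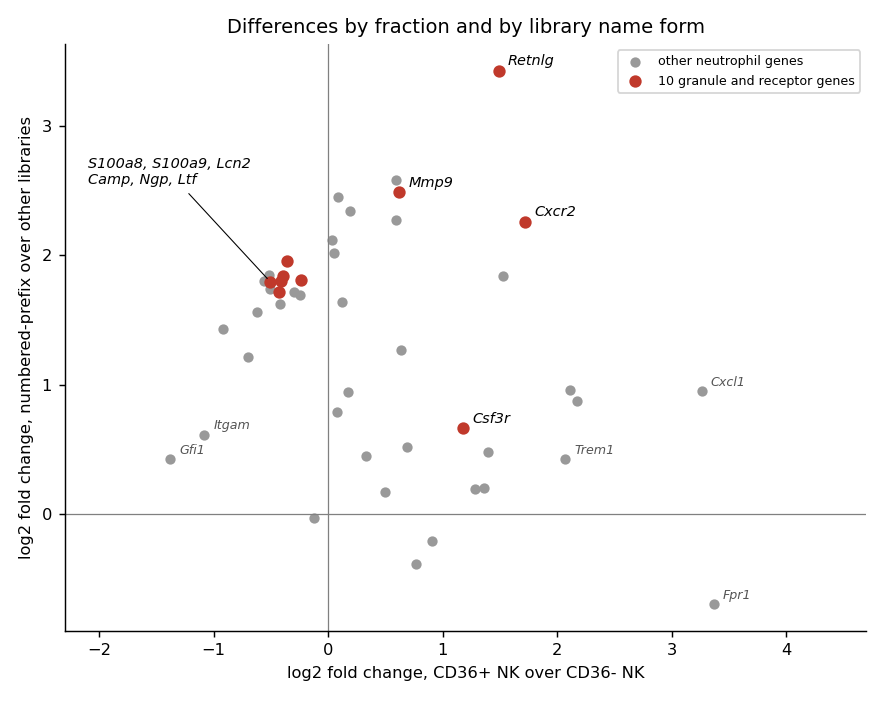
Log2 difference between the name forms (vertical axis) against the log2 fold change of CD36+ NK over CD36- NK (horizontal axis), both from edgeR, for the 10 genes and the other neutrophil genes tested. The 6 calprotectin and specific granule genes lie at 1.72 to 1.96 on the vertical axis, with Mmp9 at 2.49, Retnlg highest at 3.43 and Csf3r at 0.66.

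Although their levels differed by up to 7.34-fold between libraries, S100a8, S100a9, Lcn2, Camp, Ngp and Ltf kept nearly fixed proportions to each other. These 6, the calprotectin and specific granule genes, were set apart after their values had been seen, and Mmp9, of the late granules, is not among them. With Camp as the reference, chosen after the values had been seen, there were 5.02, 4.95 and 5.07 counts of Ngp per count of Camp in CD36+ NK and 4.75, 4.44 and 4.96 in CD36- NK. The highest of these 6 ratios was 1.14 times the lowest. The corresponding spread was 1.13 for Lcn2, 1.17 for Ltf, 1.29 for S100a9 and 1.3 for S100a8. Of 14657 tested genes with a count in every library, 9 (0.0614%) kept their ratio to Camp within a 1.5-fold range, namely these 5, then Cd177, Ly6g and Itgb2l from the other neutrophil genes listed, and Inhba. Ly6g, the surface marker by which mouse neutrophils are sorted, stood at 18.03, 2.64 and 4.48 CPM in CD36+ NK and at 19.9, 8.74 and 7.99 CPM in CD36- NK. CD36+ NK replicates 2 and 3 were again the lowest, while CD36- NK replicate 1 was slightly above CD36+ NK replicate 1.

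**Figure D4:**
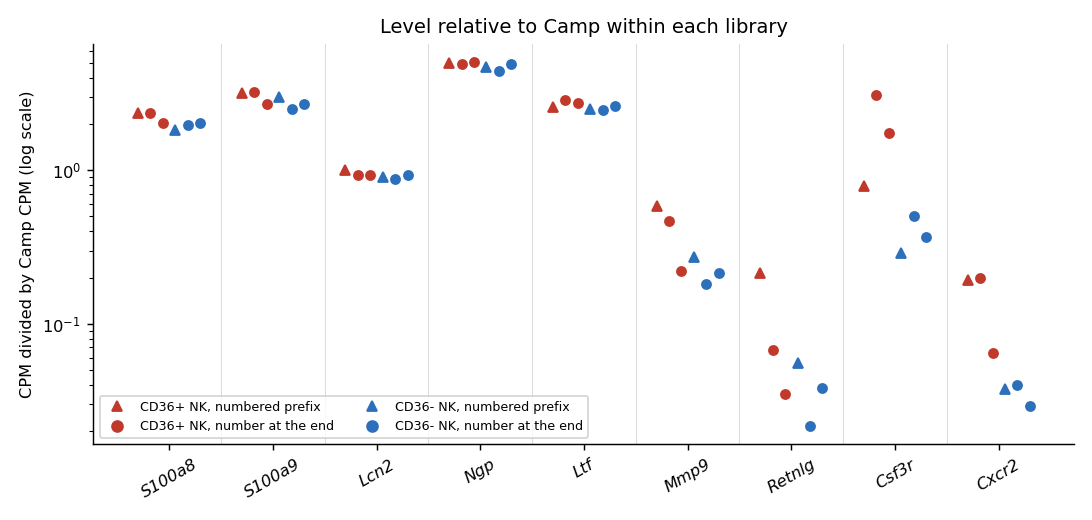
Counts of each gene per count of Camp in each of the 6 libraries, on a log axis. Ngp, S100a9, Ltf, S100a8 and Lcn2 run flat across the libraries, whereas Csf3r, Retnlg, Cxcr2 and Mmp9 do not.

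Mmp9, Cxcr2, Retnlg and Csf3r did not keep a fixed ratio to Camp. Mmp9 ran from 0.181 to 0.581 counts per count of Camp, with CD36+ NK replicates 1 and 2 the highest. Retnlg stood at 0.214 in CD36+ NK replicate 1 and at 0.0215 to 0.0678 elsewhere. Cxcr2 was at 0.192, 0.199 and 0.0643 in CD36+ NK and at 0.0289 to 0.0399 in CD36- NK, so every CD36+ NK library was above every CD36- NK library on this ratio, as it was in 3.85% of all tested genes. Camp itself was lowest in CD36+ NK replicates 2 and 3, which raises the ratios of those libraries. Csf3r had the widest ratio, at 0.796, 3.11 and 1.74 in CD36+ NK and at 0.29 to 0.504 in CD36- NK, again without overlap. In CD36+ NK replicates 2 and 3 there were thus more counts of Csf3r than of Camp, and the ratio in CD36- NK replicate 1 was the lowest. As a description over 6 libraries that share their sorting scheme, Pearson's r on the log2 scale was 0.99 to 1.00 over the 15 pairs of the 6 calprotectin and specific granule genes and 0.09 to 0.18 between Csf3r and each of them. For Cxcr2 it was 0.576 to 0.665 with each of these 6 genes and 0.812 with Csf3r.

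The azurophil granule genes, made earlier in maturation, included Mpo, the myeloperoxidase, at 51.9, 4.99 and 3.32 CPM in CD36+ NK and 16.7, 15.5 and 7.60 CPM in CD36- NK. Elane, the neutrophil elastase, stood at 29.0, 2.06 and 1.66 CPM in CD36+ NK and at 10.6, 6.62 and 4.19 CPM in CD36- NK. Both were highest in CD36+ NK replicate 1 and lowest in the other CD36+ NK libraries, as the specific granule genes were, but their ratio to Camp ran over a 3.4-fold range for Mpo and a 3.79-fold range for Elane. Of the 5 azurophil genes, edgeR called 0 between the groups and 0 had an unadjusted p below 0.05, where 5.96% and 26.3% of all tested genes did, with Mpo at a log2 fold change of 0.59 (SE 0.96, edgeR adjusted p = 0.761) and Prtn3, proteinase 3, at 0.05 (SE 0.90, adjusted p = 0.982). All 5 were higher in the libraries with a number at the start of the name, by log2 differences of 1.69 to 2.58, and 0 passed edgeR's test (0.0135% of all tested genes) although 5 had an unadjusted p below 0.05 (11.9% of all tested genes). DESeq2, which called 0.677% of all tested genes, called 1 of them, Elane.

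Over the 42 other neutrophil genes on the lists, 36 had enough counts to be tested, and 8 were higher and 2 lower in CD36+ NK, where 2.98% of all tested genes were called in each direction. Of the 9 specific and gelatinase granule genes reported here, edgeR called 1. Itgam, the CD11b integrin chain that NK cells and macrophages also carry, fell by 1.08 on the log2 scale (SE 0.24, adjusted p = 0.0336), from 260 to 399 CPM in CD36- NK to 122 to 198 CPM in CD36+ NK. The other 8 were not called, among them Cybb, the NADPH oxidase subunit gp91phox, at 0.91 (SE 0.23, adjusted p = 0.0501) and Chil3, a chitinase-like protein, at -0.70 (SE 0.51, adjusted p = 0.449).

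Among receptors and signalling genes of neutrophils, 5 of the 9 tested were higher in CD36+ NK and 0 lower, beside 2.98% of all tested genes in each direction. Fpr1, the formyl peptide receptor, stood at 29.2, 38.7 and 52.4 CPM in CD36+ NK and at 2.61, 7.15 and 1.85 CPM in CD36- NK (log2 fold change 3.37, SE 0.48, edgeR adjusted p = 0.00789), without overlap and with CD36+ NK replicate 1 the lowest of its group. Trem1, which amplifies inflammatory signals in myeloid cells, stood at 50.2, 56.2 and 46.3 CPM in CD36+ NK and at 17.5, 7.15 and 11.6 CPM in CD36- NK (2.07, SE 0.30, adjusted p = 0.00786). Fpr2 (1.36, adjusted p = 0.0111), Trem3 (1.28, adjusted p = 0.0242) and Clec4d (2.11, adjusted p = 0.0277) were also called, and Cxcr4, which retains neutrophils in marrow, was not (0.50, SE 0.22, adjusted p = 0.214). These receptors are also used by macrophages and monocytes, and the macrophage and Kupffer cell sums given above moved in the same direction. The monocyte list went the other way, at 678 to 898 CPM in CD36+ NK against 1054 to 1389 CPM in CD36- NK without overlap, with 1 gene higher, Cd14, and 1 lower, Ccr2. The part of either cell type was not tested. With 1 library left out, Trem1 and Fpr1 were called in 6 of 6 fits, Fpr2 in 5, Trem3 in 3 and Clec4d in 2, and without both replicate 1 libraries Trem1 and Fpr2 were. The median difference between the forms of name was 0.42 for these receptors, beside 1.81 for the 6 calprotectin and specific granule genes.

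The ligands of Cxcr2 were higher in CD36+ NK in all 3 genes that could be tested, against 2.98% of all tested genes. Cxcl2 stood at 124, 112 and 46.1 CPM in CD36+ NK and at 32.2, 14.8 and 15.3 CPM in CD36- NK (log2 fold change 2.17, SE 0.45, edgeR adjusted p = 0.0274). Cxcl1 rose by 3.26 (SE 0.53, adjusted p = 0.0121) and Ppbp, the platelet basic protein, by 1.40 (SE 0.34, adjusted p = 0.0435). Cxcl1 had 52, 42 and 20 counts in CD36+ NK and only 6, 3 and 2 in CD36- NK. The latter lie near the floor of 3 counts, so the size of its rise is uncertain. With 1 library left out, Cxcl1 was called in 5 of 6 fits, Cxcl2 in 3 and Ppbp in 1, and without both replicate 1 libraries none of the 3 was called. Cxcl3 and Cxcl5 had too few counts, with 19 and 1 over all libraries. Csf3, which encodes G-CSF, the ligand of Csf3r, had 3 counts in all and was not tested. Of the receptors for S100A8 and S100A9, Tlr4 was at a log2 fold change of 0.77 (SE 0.53, adjusted p = 0.416) and Ager at -0.12 (SE 0.27, adjusted p = 0.834).

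Of the 8 tested genes of neutrophil identity and lineage, 0 were higher and 1 lower, where 2.98% of all tested genes were called in each direction. The lower gene was Gfi1, a transcription factor of granulocyte and lymphoid precursors (-1.38, SE 0.25, edgeR adjusted p = 0.019). Hdc, histidine decarboxylase, which basophils and mast cells also use, was at 0.12 (SE 0.65, adjusted p = 0.935). The basophil, mast cell and eosinophil list summed to 69.0, 23.7 and 25.5 CPM in CD36+ NK replicates 1, 2 and 3 and to 91.2, 87.9 and 45.2 CPM in CD36- NK. On this list CD36- NK replicate 2 was thus above CD36+ NK replicate 1, and its genes were not called by edgeR. Without CD36+ NK replicate 1, the called genes among these other neutrophil genes went from 10 to 17, with 8 higher and 9 lower, where 3.73% of 15208 tested genes were higher and 3.64% lower. The lower ones then included Mpo (-1.68, adjusted p = 0.0446), Elane (-1.95, adjusted p = 0.0408), Prtn3 (-2.09, adjusted p = 0.0154), Olfm4 (-2.19, adjusted p = 0.0395) and Cd177 (-1.73, adjusted p = 0.0337), whereas Cybb was then called higher and Ppbp was not. The called genes fell to 4 and 6 when replicate 2 or 3 of CD36+ NK was left out, and to 5 and 4 when replicate 1 or 3 of CD36- NK was. All of these were higher, so that the calls of Itgam and Gfi1 ended in each case, with 2 to 4 of the 8 higher calls. Between the forms of name, 32 of the 36 genes had a log2 difference above 0, against 47.3% of all tested genes. Of these 36, edgeR called 0 (0.0135% of all tested genes), 25 had an unadjusted p below 0.05 (11.9% of all tested genes), and DESeq2 called 11 (0.677% of all tested genes).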

How the data were processed

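RNA was sequenced from 6 samples, 3 of each fraction. Reads were filtered by the authors with Seqtk and mapped with HISAT2 (version 2.0.4 in the submitters' processing notes, which name mRatBN7.2, a rat assembly, although the table holds mouse genes), while StringTie gave fragment counts. The authors deposited these raw counts for 57180 genes. The FPKM that the authors deposited beside them were the counts over length and library total (100% of 7439 well counted genes, tolerance 2%) and served only to rank genes per length. The records of 2 genes were broken and were rejoined. Groups followed the sample titles. The names of the libraries use the sign of CD36 and the numbers differently. Titles CD36- NK 1, 2 and 3 belong to library numbers 6, 1 and 2.

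Counts were tested with edgeR 4.0.16 (limma 3.58.1, R 4.3.3; tables in Python 3.11.15). Genes were kept by filterByExpr (minimum count 10), which left 14761, including all 10 members, scaled by TMM, and compared by the quasi-likelihood test, with p-values adjusted by Benjamini-Hochberg over all of them. Genes at an adjusted p below 0.05 and a fold above 2 were called. SE is the absolute log2 fold change over the square root of F. The biological coefficient of variation was 20.3%. A second model held the group and the form of the library name. The test of their interaction was added after the values were seen. Replicates differed by more than sampling noise (chi-square per degree of freedom 14.8 to 29.2). Floors of 3 counts cover counting error only. On simulated counts with 200 of 14761 genes changed by a fold of 4, 98% were recovered between the groups, 98.5% between the forms of name (with 10 unchanged genes called) and 42.5% in the interaction. Every simulated gene had the common coefficient of variation of 20.3%. All members but Csf3r spread far more, with SDs of 100% to 154% of the mean CPM in CD36+ NK. The recovered shares therefore do not apply to them.

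The members and all gene lists were chosen with earlier results of these data known, and the set of 6 calprotectin and specific granule genes after the members' values were seen. Named are all members, the listed neutrophil genes called in either test, the 2 of highest mean CPM in each list, and the 10 genes whose log2 CPM (prior count 2) followed the members' mean most closely. Elane, Ly6g, Cd177, Itgb2l, Olfm4 and Inhba were named after their values were seen. Of the listed neutrophil genes, 1 is not reported here and was left out of the counts and medians of the lists after its values were seen. Alternatives were DESeq2 1.42.0, other scalings, filters and fold thresholds, the replicate number or name form as a block, and libraries left out. Promoters came from RefSeq, which had an entry for 9 of the 10 members. Mmp9 had none.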

Additional observations from a re-analysis of the deposited data

Results flagged for a closer look

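For 8 of the 10 genes, the CD36+ NK library was above the CD36- NK library in the replicate 1 pair, whose library names begin with a number, while both other CD36+ NK libraries were below both other CD36- NK libraries. This order was seen in 5.3% of the 14761 tested genes. The log2 ratio in the replicate 1 pair was 2.00 for Retnlg, 1.13 for Mmp9, 0.41 for S100a8, 0.19 for Lcn2, 0.13 for S100a9, 0.13 for Ngp, 0.10 for Ltf and 0.05 for Camp. The corresponding log2 ratio of the means in the other 4 libraries was -0.65 for Retnlg, -0.70 for Mmp9, and between -1.42 and -1.26 for the 6 calprotectin and specific granule genes. The replicate 1 pair has 1 library a group, so the ratios within it have no replicate check. The difference itself was tested by the interaction of group and name form, which was added after the values had been seen. edgeR called 0 of 14761 genes by it, and 483 (3.27%) had an unadjusted p below 0.05, among them 9 of the 10 members, all but Csf3r. The lowest adjusted p among the 10 genes was 0.56, for Retnlg, and the lowest over all genes was 0.217.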

How the results depend on the processing

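Between CD36+ NK and CD36- NK, the number of genes called over the whole table was 880 and became 1552 with no fold threshold, 376 at a fold above 4, 560 with the replicate block, 433 without the replicate 1 libraries (106 higher and 327 lower) and 417 to 1160 with 1 library left out. Of the 10 members, 0 were called, 1 by DESeq2 and by the replicate block (Csf3r in both, with 1.18 and an adjusted p of 0.0406 under the block), 1 without the replicate 1 libraries (S100a9), and 0 to 6 with 1 library left out. DESeq2 gave Retnlg and Mmp9 no adjusted p. Of the other neutrophil genes, 10 were called (8 higher and 2 lower), 5 at a fold above 4 (5 higher and 0 lower), 5 without the replicate 1 libraries (2 higher and 3 lower) and 4 to 17 with 1 library left out (from 4 higher and 0 lower to 8 higher and 9 lower). Between the forms of name, 2 genes were called, 100 by DESeq2, 1 with upper-quartile scaling, 4 with no filter, 1 at a fold above 4 and 1 to 4 with 1 library left out. Among the members it was 0, 9 by DESeq2 and 0 to 1 with 1 library left out (Retnlg at 4.64, adjusted p = 0.0315, without CD36- NK replicate 1), and among the other neutrophil genes 0, 11 by DESeq2 and 0 with any library left out.

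Of 140 log2 fold changes of members between the groups under the alternatives, 114 kept their direction and were not called (for 2 of them, by DESeq2, with no adjusted p), 17 changed sign and 9 passed the threshold. Of 110 between the forms of name, 100 kept their sign and side of the threshold, 10 passed it and none changed sign, although without CD36+ NK replicate 1 they fell to between 0.37 (Csf3r) and 1.97 (Retnlg). Mmp9 went to -0.06 with the replicate block, -0.05 with the name form as a block and -0.70 without the replicate 1 libraries, and Retnlg to -0.66 without them. With 1 library left out, S100a8 ran from -1.67 to 0.18, S100a9 from -1.79 to 0.17, Retnlg from -1.65 to 2.49, Cxcr2 from -0.15 to 2.21, Mmp9 from -1.39 to 1.31, Lcn2 from -1.79 to 0.04 and Ngp from -1.75 to 0.02, while Camp (-1.85 to -0.09), Ltf (-1.69 to -0.02) and Csf3r (0.79 to 1.39) kept their sign. The cause was not tested. The replicate numbers were not taken to pair the samples, since deviations of same-numbered libraries correlated at 0.31, 0.0515 and -0.0837 over 14761 genes. With 3 libraries a group, and 1 library a group and name form among replicate 1, the SE was 0.68 to 1.26 on the members other than Csf3r, and log2 differences well above 1 SE, such as 1.72 for Cxcr2, were not called.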

Other observations

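Across the 6 libraries, the genes outside the 10 whose log2 CPM followed the mean of the 10 most closely were Hdc (Pearson's r 0.999), Lrg1 (0.999), Crispld2 (0.997), Mrgpra2b (0.995), Shmt2 (0.992), Mmp8 (0.991), Klhl23 (0.990), Gm19810 (0.987), Elane (0.986) and Tm2d3 (0.982). Hdc, Mrgpra2b, Mmp8 and Elane were on the neutrophil lists. Lrg1, which encodes a glycoprotein of neutrophil granules and liver, had 465, 57 and 60 counts in CD36+ NK and 296, 118 and 76 in CD36- NK. Shmt2, a mitochondrial enzyme of serine metabolism, had a narrow range, from 69.95 to 90.13 CPM, with the replicate 1 libraries highest and CD36+ NK replicates 2 and 3 lowest.

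Some granulocyte genes too low to be tested had counts almost only in CD36+ NK replicate 1. Stfa2l1, a stefin of mouse neutrophils, had 34 counts there, 3 in CD36+ NK replicate 2, 3 in CD36- NK replicate 1 and 0 in the other 3 libraries, and Cxcr1 had 8 there, 1 each in CD36+ NK replicates 2 and 3 and 0 in CD36- NK.

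The only genes that edgeR called between the forms of library name were both lower in the libraries with a number at the start. Cacna1e, a calcium channel subunit, had 404 and 340 counts there against 694 to 1429 in the other 4 (log2 difference -1.50, adjusted p = 0.0402). ENSMUSG00000121501, for which the table gives no symbol, had 48 and 58 counts there against 3878 to 5641 in the other 4 (-6.59, adjusted p = 0.00089). This was a 96.3-fold difference between the forms of name. Among the other 4 libraries it stood at 367 and 322 CPM in CD36+ NK and at 465 and 550 CPM in CD36- NK.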
